A study of Mus musculus with 21 samples.

Results

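The bombesin and prokineticin receptor genes are 5 G protein-coupled receptor genes, *Brs3*, *Nmbr*, *Grpr*, *Prokr1* and *Prokr2*, taken by symbol from the 35266 genes of the deposited tables. They were chosen by their family and with their TPM and fold changes between these groups already known, so their levels and fold changes are given as a description and no p-value is attached to them. The libraries are RNA-Seq profiles of AGRP and POMC neurons, each from the fluorescent arcuate neurons of a single male mouse on a C57BL/6J background. AGRP neurons came from NPY-hrGFP mice, in which *Npy* drives the fluorescent protein, and POMC neurons from Pomc-GFP mice, in which *Pomc* drives topazFP. Mice were either fed without limit, with 5 mice for each cell type, or had only water for 24 hr (FD), with 6 mice for AGRP and 5 mice for POMC neurons. Ages were postnatal day 46 to 55 (fed) and 47 to 55 (FD) for AGRP neurons, and 51 to 56 (fed) and 54 to 56 (FD) for POMC neurons. Fed and FD mice alike were caged singly over this time, and 44 to 214 cells were sorted by hand from each.

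Both receptor families act mainly through Gq, the G protein that activates phospholipase C, which releases calcium from internal stores and activates protein kinase C. Among the bombesin receptors, *Nmbr* encodes the receptor for neuromedin B, *Grpr* the receptor for gastrin-releasing peptide and *Brs3* a receptor with no established natural peptide ligand, whose loss makes mice obese. *Prokr1* and *Prokr2* encode receptors that both bind the peptides prokineticin 1 and prokineticin 2. AGRP neurons promote feeding and are active in hunger, whereas POMC neurons restrain it.

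Sequences upstream of 4 of the genes are shown because their levels lay mainly in one cell type or differed between FD and fed mice. Each is the 250 bases before the RefSeq start site (build GRCm38.p6, the same assembly as mm10), read 5′ to 3′ on the gene's strand. *Brs3* and *Prokr1* had their highest levels in POMC neurons, and *Nmbr* and *Prokr2* in AGRP neurons. The *Brs3* stretch is chrX:57042824-57043073 (+), the *Prokr1* stretch chr6:87590744-87590993 (−), the *Nmbr* stretch chr10:14759697-14759946 (+) and the *Prokr2* stretch chr2:132385448-132385697 (−). Capitals mark matches, on either strand, to any of 6 motifs that were searched.
Brs3: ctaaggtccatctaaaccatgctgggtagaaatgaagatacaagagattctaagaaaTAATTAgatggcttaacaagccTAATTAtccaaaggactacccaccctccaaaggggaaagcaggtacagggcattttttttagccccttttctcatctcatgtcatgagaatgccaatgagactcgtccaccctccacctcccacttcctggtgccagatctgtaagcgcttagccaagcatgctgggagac
Prokr1: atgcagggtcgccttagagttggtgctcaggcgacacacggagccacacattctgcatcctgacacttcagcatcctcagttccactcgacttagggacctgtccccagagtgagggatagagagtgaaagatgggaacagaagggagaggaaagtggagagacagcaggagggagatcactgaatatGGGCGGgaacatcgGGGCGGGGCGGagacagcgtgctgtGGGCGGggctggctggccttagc
Nmbr: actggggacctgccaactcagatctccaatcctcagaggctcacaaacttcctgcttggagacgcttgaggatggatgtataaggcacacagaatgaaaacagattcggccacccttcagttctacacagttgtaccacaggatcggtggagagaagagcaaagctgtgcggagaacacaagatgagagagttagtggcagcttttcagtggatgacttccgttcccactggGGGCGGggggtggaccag
Prokr2: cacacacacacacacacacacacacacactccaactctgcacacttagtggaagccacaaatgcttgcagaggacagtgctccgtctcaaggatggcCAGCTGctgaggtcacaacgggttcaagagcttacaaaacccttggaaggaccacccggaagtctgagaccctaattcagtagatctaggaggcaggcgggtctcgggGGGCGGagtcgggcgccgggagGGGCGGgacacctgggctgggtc
The motifs were CACGTG (E-box), CAGCTG (E-box of another class), TGACG (CRE half-site), GTAAACA (FOXO site), GGGCGG (GC box) and TAATTA (homeodomain site). The capitals in *Brs3* are 2 TAATTA matches, a motif found in 4.84% of 32851 mouse promoter stretches of the same length. The capitals in *Prokr1* are 4 GGGCGG matches, 2 of which share a base, and those in *Nmbr* are 1 GGGCGG match. *Prokr2* has 2 GGGCGG matches and 1 CAGCTG match, which 32.7% and 13.0% of all the stretches hold. None of the 5 receptor stretches, that of *Grpr* included, held CACGTG or GTAAACA, which 6.02% and 3.17% of the stretches hold. These matches describe letters and were not tested for any link with the levels below.

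Every one of the 21 libraries carried the markers of its label. *Agrp* was 2053 to 19928 TPM (a level scaled by gene length and library size) in AGRP libraries and *Pomc* 7162 to 23063 TPM in POMC libraries, against 7.35 to 69.7 TPM of *Pomc* in AGRP libraries and 5.27 to 69.3 TPM of *Agrp* in POMC libraries. *Sst*, listed here among markers of other arcuate neurons, was 440 to 2334 TPM in AGRP libraries, with fed and FD ranges that overlapped. Whether its reads came from the AGRP neurons themselves or from other cells was not tested, nor was its part in the results. Of 16 markers of astrocytes, oligodendrocytes, microglia and endothelial cells, 9 to 11 had a group mean under 1 TPM, their sum was 25.5 to 61.1 TPM in every library, *C1qa* had no reads in any library and *Mbp* was the highest. Libraries held 9822298 to 37663979 gene counts. They fall into 3 spike-in sets, in which 1 µl, 10 µl or a volume in proportion to the cell number of ERCC control RNA was added. POMC fed replicates 1 and 2 stood apart from the other POMC libraries. Their *Cartpt* levels were 13694 and 14096 TPM against 1647 to 4389 TPM in the rest, their *Npy* levels were 1.05 and 0.185 TPM against 20.2 to 157 TPM, and they were the only POMC libraries of the cell-number set, while the POMC libraries of the 10 µl set were both from FD mice (replicates 4 and 5). Several of the results in POMC neurons are therefore also given without these fed replicates.

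The 4 groups differed in which receptor was highest. In all 5 POMC FD libraries *Prokr1* was the highest of the receptors in TPM, and in POMC fed libraries it was *Brs3* in 3 and *Prokr1* in 2. In AGRP fed libraries *Prokr2* was highest in 4 and *Grpr* in 1. In AGRP FD libraries *Nmbr* was highest in 4 and *Prokr2* in 2. The summed TPM of the receptors was 21.9 to 58.8 in AGRP fed libraries and 79.2 to 162 in AGRP FD libraries, so these groups did not overlap, whereas the sums of 117 to 167 in POMC fed and 124 to 194 in POMC FD libraries did. All 5 receptors passed the filter on low counts. In these bulk libraries, fewer cells with a transcript and less of it in each cell cannot be told apart.

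**Figure D1:**
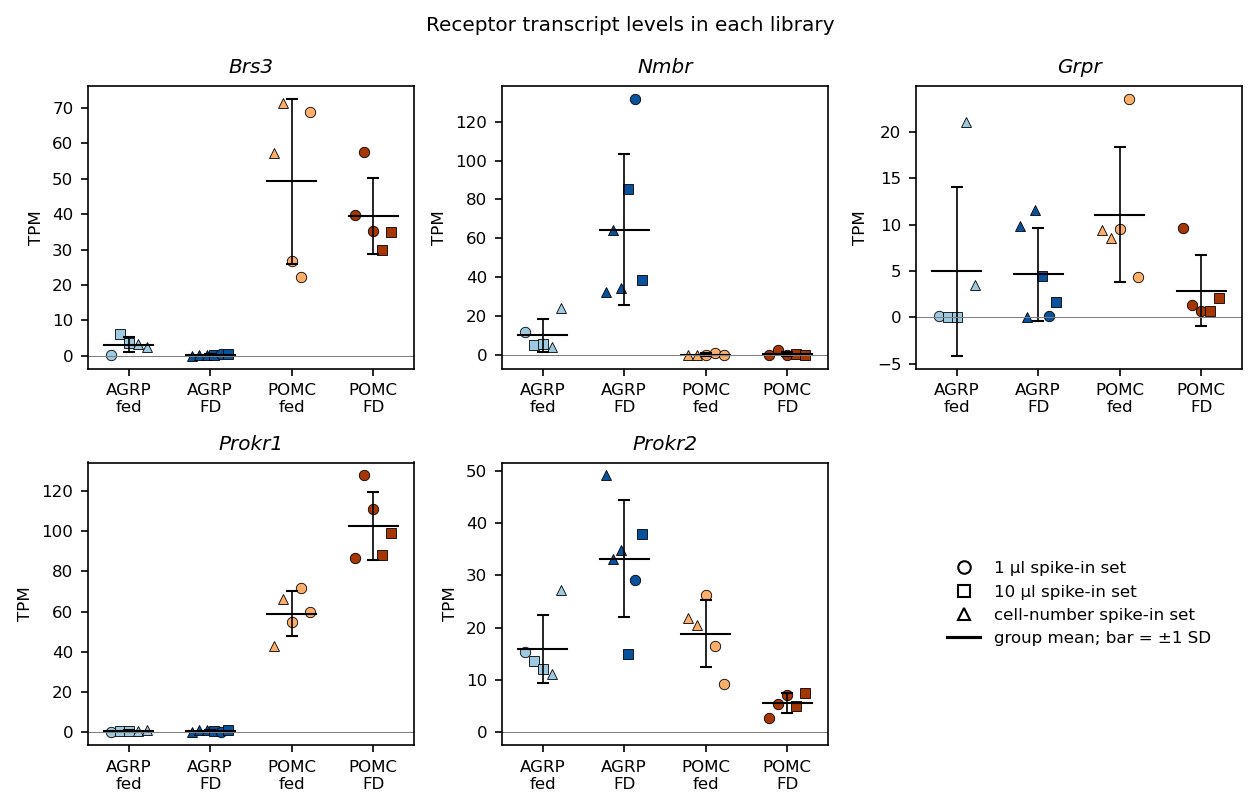
TPM (y axis) of each receptor gene in each library (points), by cell type and feeding state (x axis), with the group mean (horizontal line) ± SD (vertical bar) and symbols for the 3 ERCC spike-in sets. *Nmbr* in AGRP FD libraries (32.4 to 132 TPM) lies above every other library, and *Prokr1* is 42.7 TPM or more in each POMC library and at most 1.15 TPM in each AGRP library.

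*Nmbr*, the neuromedin B receptor gene, was a transcript of AGRP neurons whose level was higher in FD mice. Its AGRP FD level was lowest at 32.4, median 51.4 and highest at 132 TPM. The AGRP fed libraries had 11.8, 5.08, 5.68, 4.25 and 24.4 TPM. No FD library overlapped the fed ones, and the mean was 64.4 ± 38.9 TPM (SD, n = 6) in FD and 10.2 ± 8.44 TPM (SD, n = 5) in fed mice. The fitted difference was 2.94 ± 0.79 (log2 fold change, FD against fed, ± SE), and it lay between 2.63 and 3.57 when any 1 AGRP library was left out. Within each spike-in set the FD libraries also lay above the fed ones, at 131.7 against 11.8 TPM in the 1 µl set, 38.5 to 85.2 against 5.08 to 5.68 TPM in the 10 µl set, and 32.4 to 64.3 against 4.25 to 24.4 TPM in the cell-number set.

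In POMC neurons *Nmbr* was close to the detection limit. The fed libraries had 0, 0, 0.068, 1.27 and 0.090 TPM, and the FD libraries 0, 2.37, 0.074, 0.696 and 0.253 TPM. These ranges overlapped, and only 3 of the 10 libraries had more than 3 counts. The fitted POMC difference of 1.27 ± 0.96 (log2, FD against fed, ± SE) rested on single libraries, being −0.39 without FD replicate 2 and 3.79 without fed replicate 4. Every AGRP library lay above every POMC library. By the fit AGRP neurons exceeded POMC neurons by 5.09 ± 0.96 in fed mice and 6.76 ± 0.98 in FD mice (log2 ± SE), from 16 and 35 POMC counts in all, and the AGRP change with food deprivation less the POMC change was 1.67 ± 1.27. In mm10 the gene spans chr10:14705621-14770850 on the plus strand, and the minus-strand gene *B230364G03Rik*, at chr10:14758635-14760720, covers the stretch printed above, which lies inside this span because a longer transcript model starts upstream, and 138 of its 1912 exon bases. Counting ignored strand, so reads of the 2 genes cannot be told apart there. *B230364G03Rik* itself was 2.18 to 31.7 TPM (19 to 289 counts) in AGRP FD libraries and at most 0.678 TPM (0 to 5 counts) in AGRP fed libraries, while *Nmbr* had 314 to 2100 and 48 to 250 counts. In TPM the highest AGRP FD value of both genes was in replicate 5, whereas in counts that of *Nmbr* was in replicate 4.

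*Brs3*, the orphan bombesin receptor gene, was in contrast a transcript of POMC neurons. POMC fed libraries had 57.2, 71.5, 26.7, 22.2 and 68.8 TPM, and POMC FD libraries 39.9, 57.5, 35.1, 29.8 and 34.8 TPM. The 2 ranges overlapped, with means of 49.3 ± 23.4 and 39.4 ± 10.7 TPM (SD, n = 5 each). The fitted difference between FD and fed POMC neurons was −0.48 ± 0.53 (log2 ± SE), an interval of 2 SE from −1.53 to 0.58, and it was 0.0028 without POMC fed replicates 1 and 2.

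In AGRP neurons *Brs3* was low in fed mice and nearly undetected in FD mice. The AGRP fed libraries had 0.182, 6.04, 3.604, 3.23 and 2.55 TPM (3 to 93 counts). The AGRP FD libraries had 0 at the lowest, 0.099 at the median and 0.435 TPM at the highest, with 18 counts among the 6 of them. Fed replicate 1 lay within the FD range, and the other 4 fed libraries lay above all FD libraries. The fitted difference was −3.94 ± 0.64 (log2, FD against fed, ± SE) and −4.50 to −3.51 with any 1 library left out. It did not hold in every spike-in set. In the 1 µl set, with 1 library each, the FD value of 0.435 TPM (8 counts) was above the fed value of 0.182 TPM (3 counts, at the limit of detection). In the 10 µl set FD libraries had 0.084 to 0.338 against 3.604 to 6.04 TPM, and in the cell-number set 0 to 0.114 against 2.55 to 3.23 TPM. *Pomc*, the marker of the other cell type, ranged from 16.1 to 69.7 TPM in fed and 7.35 to 60.9 TPM in FD AGRP libraries. Whether these *Pomc* reads came from POMC neurons or from the AGRP neurons themselves was not tested, nor was their part in the *Brs3* difference. Between cell types no library overlapped, and AGRP neurons were lower than POMC neurons by a log2 fold change of −4.17 ± 0.61 in fed and −7.64 ± 0.69 in FD mice (± SE). The AGRP change with food deprivation less the POMC change was −3.47 ± 0.83. The gene lies at chrX:57043074-57048758.

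*Prokr1*, a prokineticin receptor gene, was a transcript of POMC neurons at levels that were higher in FD mice in TPM, although with ERCC scaling per sorted cell the difference was −0.39 (log2). AGRP libraries had at most 1.15 TPM in fed mice and at most 0.971 TPM in FD mice, with 0 to 37 counts. The POMC fed libraries had 42.7, 66.1, 54.8, 71.5 and 60.0 TPM and the POMC FD libraries 86.9, 127.8, 110.9, 88.2 and 98.9 TPM. All FD libraries were above all fed libraries, with means of 102.5 ± 17.1 and 59.0 ± 11.1 TPM (SD, n = 5 each). On the fitted scale this difference was 0.68 ± 0.38 (log2 ± SE), with a 2 SE interval from −0.085 to 1.45. It was 0.71 without POMC fed replicates 1 and 2, and the 3 FD libraries of the 1 µl set (86.9 to 127.8 TPM) lay above its 3 fed libraries (54.8 to 71.5 TPM). AGRP neurons were lower than POMC neurons by a log2 fold change of −6.69 ± 0.51 in fed and −7.18 ± 0.47 in FD mice (± SE). The gene lies at chr6:87578593-87590701.

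*Prokr2*, the other prokineticin receptor gene, was found in both cell types and was lower in POMC FD and higher in AGRP FD than in fed libraries. POMC fed libraries had 21.8, 20.5, 26.2, 16.6 and 9.19 TPM and POMC FD libraries 2.75, 5.36, 7.14, 5.00 and 7.52 TPM. These did not overlap, and the means were 18.8 ± 6.39 and 5.55 ± 1.91 TPM (SD, n = 5 each). The fitted difference was −1.90 ± 0.33 (log2 ± SE) and −2.09 to −1.73 with any 1 library left out. Without POMC fed replicates 1 and 2 it was −1.66, and within the 1 µl set the FD libraries had 2.75 to 7.14 TPM against 9.19 to 26.2 TPM in the fed ones. AGRP FD libraries had 15.0 at the lowest, 34.0 at the median and 49.1 TPM at the highest, and AGRP fed libraries 15.3, 13.7, 12.0, 11.2 and 27.2 TPM. These overlapped through FD replicate 4 and fed replicate 5, with means of 33.2 ± 11.2 (SD, n = 6) and 15.9 ± 6.52 TPM (SD, n = 5). The fitted AGRP difference was 1.28 ± 0.31 (log2 ± SE), and the AGRP less the POMC difference was 3.18 ± 0.45. Within the spike-in sets the FD and fed libraries did not overlap, at 29.1 against 15.3 TPM in the 1 µl set, 15.0 to 37.9 against 12.0 to 13.7 TPM in the 10 µl set and 33.2 to 49.1 against 11.2 to 27.2 TPM in the cell-number set. AGRP against POMC neurons differed by −0.45 ± 0.31 in fed mice, where the groups overlapped, and by 2.73 ± 0.33 in FD mice, where they did not (log2 ± SE). In order of mean level the groups were AGRP FD, POMC fed, AGRP fed and POMC FD, of which each of the first 3 overlapped the others and the last overlapped none. The gene lies at chr2:132337733-132385447.

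Within POMC neurons the balance of the prokineticin receptors differed between fed and FD mice. The ratio of *Prokr2* to *Prokr1* TPM, which does not depend on how libraries are scaled to each other, was 0.153 to 0.510 in POMC fed libraries and 0.0317 to 0.0760 in POMC FD libraries. The means were 0.337 ± 0.154 and 0.0541 ± 0.0176 (SD, n = 5 each), and no library overlapped. Transcripts of these genes share at most 34 bases in a row (GENCODE M21), the longest run between any 2 of the receptors.

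**Figure D2:**
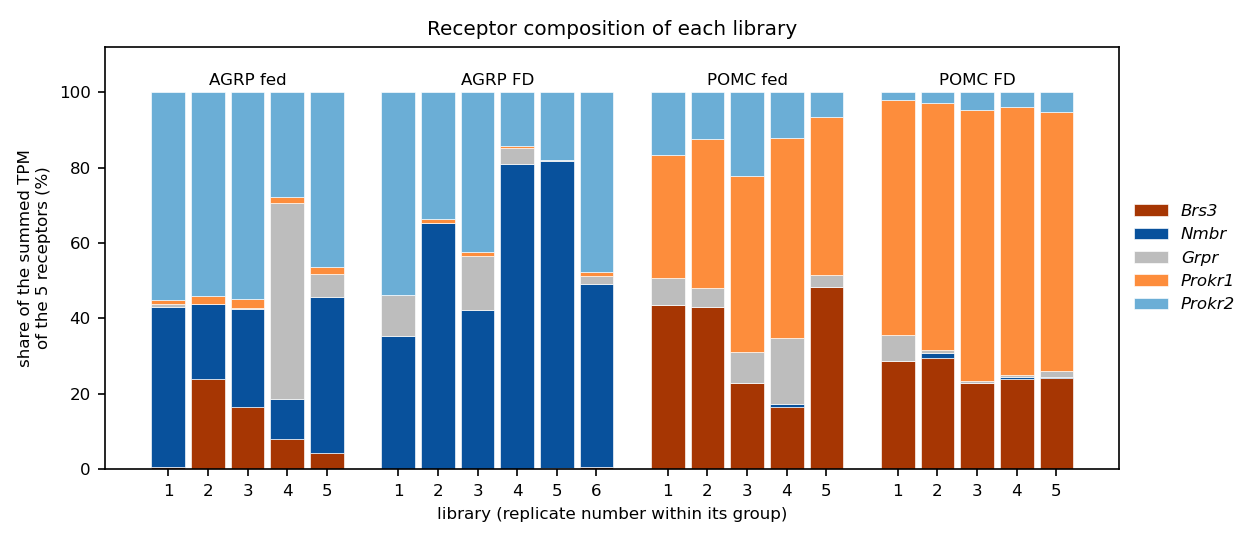
Share of each receptor gene (colours) in the summed TPM of the 5 receptors (y axis, %) for each library (x axis, replicate number within its group). *Prokr1* is 62.4% to 72.1% of the sum in POMC FD libraries and 32.6% to 52.9% in POMC fed libraries, and *Nmbr* is 35.4% to 81.5% in AGRP FD libraries and 10.5% to 42.4% in AGRP fed libraries.

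*Grpr*, the gastrin-releasing peptide receptor gene, varied widely within each group. AGRP fed libraries had 0.200, 0, 0.086, 21.1 and 3.54 TPM, and AGRP FD libraries 0 at the lowest, 3.05 at the median and 11.6 TPM at the highest. POMC fed libraries had 9.40, 8.57, 9.55, 23.6 and 4.38 TPM and POMC FD libraries 9.62, 1.35, 0.672, 0.660 and 2.11 TPM. All 4 groups overlapped each other. The POMC difference of −2.04 ± 1.27 (log2, FD against fed, ± SE) was −3.32 without FD replicate 1, and the AGRP difference of 0.12 ± 1.17 was 2.46 without fed replicate 4. The cell types differed by −1.35 ± 1.24 in fed mice, which became −3.69 without AGRP fed replicate 4, and by 0.80 ± 1.19 in FD mice (AGRP against POMC, log2 ± SE). The gene lies at chrX:163513904-163549677.

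Across the 5 contrasts the number of receptors past the threshold (edgeR quasi-likelihood q under 0.05) can be set beside that of all 16513 genes tested, although nothing is read from it because these changes were known when the receptors were chosen. In AGRP neurons 3 receptors passed with food deprivation, *Nmbr* and *Prokr2* higher and *Brs3* lower, against 10.3% of all genes. In POMC neurons *Prokr2* passed, lower, against 0.375%. Between cell types *Brs3*, *Nmbr* and *Prokr1* passed in fed mice against 7.57%, and these 3 and *Prokr2* in FD mice against 18.6%. For the difference between the AGRP and the POMC change, *Prokr2* passed with a positive sign against 4.08% of all genes and *Brs3* with a negative one against 2.63%, or 6.71% for either sign. Without AGRP FD replicate 5 *Nmbr* no longer passed in AGRP neurons, and with limma-voom *Brs3* did not, at log2 fold changes of 2.63 and −3.57. With limma-voom *Brs3* did not pass for the difference of changes either, and *Grpr* passed as well between cell types in fed mice, at −4.11. With the POMC libraries of the 1 µl set alone *Prokr2* did not pass in POMC neurons, at −1.78. With ERCC scaling *Brs3* alone passed in AGRP neurons, none passed in POMC neurons and *Prokr2* alone passed for the difference of changes. The groups did not overlap for 1 receptor in AGRP FD against fed (7.65% of all genes), 2 in POMC FD against fed (2.35%), 3 between cell types in fed mice (8.93%) and 4 in FD mice (11.4%).

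**Figure D3:**
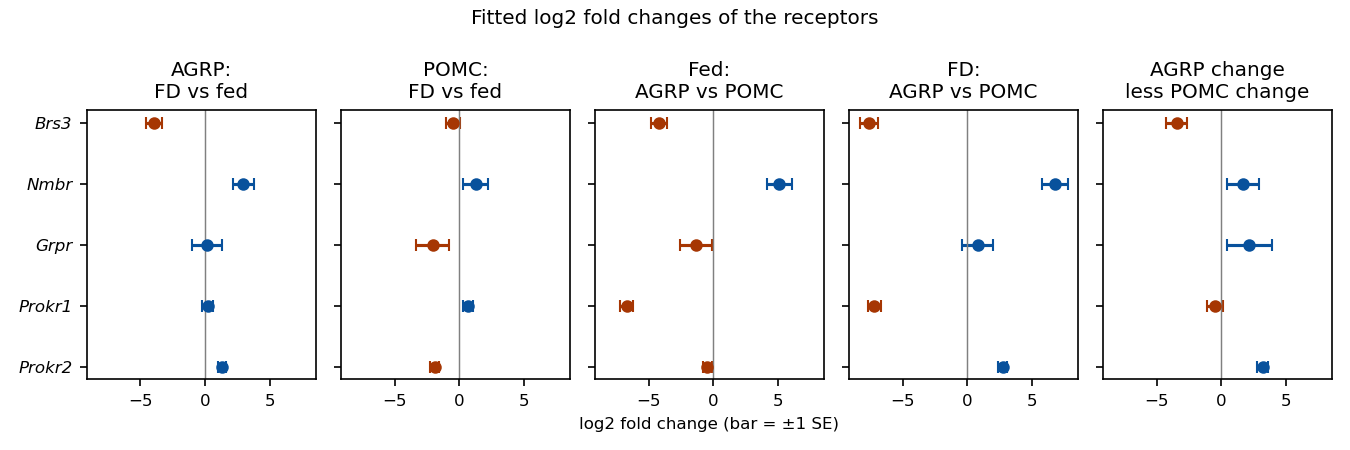
Fitted log2 fold changes (x axis) of each receptor gene (y axis) in 5 contrasts (panels), with bars of ± 1 SE. *Prokr2* lies to the right of 0 in AGRP neurons (1.28) and to the left in POMC neurons (−1.90), and the bars of *Grpr* are the widest in each panel.

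The scaling of the libraries shifted the POMC values. When libraries were scaled by ERCC reads per sorted cell in place of TMM, the median of all genes was lower in POMC FD than fed libraries by a log2 fold change of −1.11. On that scale the POMC differences of *Prokr1* and *Prokr2* were −0.39 and −3.11, which relative to the median gene were 0.72 and −1.99. *Brs3* was at −1.75 and relative to the median at −0.64. In AGRP neurons the median gene moved by −0.08, and *Nmbr*, *Prokr2* and *Brs3* were at 1.93, 1.15 and −4.55 on that scale. There the SE was wider for *Nmbr* in AGRP neurons (0.93 against 0.79 with TMM) and for *Prokr2* in POMC neurons (0.88 against 0.33). AGRP fed replicate 5 and AGRP FD replicate 3 held another ERCC mix than the other libraries. The POMC FD libraries were 3 of the 1 µl and 2 of the 10 µl set. The POMC fed libraries were 3 of the 1 µl and 2 of the cell-number set. This scaling took all volumes as the same dilution, and the paper does not describe a volume of 10 µl. The part of the spike-in sets in the lower POMC median was not tested.

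Among the ligand genes, *Nmb*, which encodes neuromedin B, was higher in AGRP FD neurons together with its receptor gene. AGRP FD libraries had 129.2 at the lowest, 172.5 at the median and 316.6 TPM at the highest, and AGRP fed libraries 22.7, 23.5, 58.8, 21.8 and 44.4 TPM, so all FD libraries were above all fed ones. *Nmb* rose by 2.87 ± 0.45 (log2 ± SE, edgeR quasi-likelihood q = 5.54e-05, higher in 6 of 6 FD libraries). The paper had reported this rise and that of *Nmbr* from the same libraries, and the ligand list was chosen with earlier results known. The q values of the ligands are therefore no independent support. POMC fed libraries had 4.63, 28.7, 22.5, 12.8 and 23.3 TPM and POMC FD libraries 31.4, 25.9, 21.9, 23.1 and 15.1 TPM, which overlapped (0.25 ± 0.43, edgeR q = 0.892). The change in AGRP neurons exceeded that in POMC neurons by 2.62 ± 0.61 (edgeR q = 0.00738), a call that was lost with limma-voom (q = 0.0739) and with ERCC scaling (edgeR q = 0.276). In FD mice *Nmb* was higher in AGRP than in POMC neurons by 3.34 ± 0.46 (edgeR q = 2.32e-06), and in fed mice the difference was 0.72 with edgeR q = 0.399. With ERCC scaling the AGRP change was 2.50 ± 0.92 (log2 ± SE) and no longer passed (edgeR q = 0.279). Of the 4 ligand genes, 3 were tested, and 1 passed in AGRP FD against fed, where 10.3% of all genes did.

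*Grp*, for gastrin-releasing peptide, and *Prok2*, for prokineticin 2, were low. Neither passed in AGRP FD against fed (edgeR q = 0.905 and 0.746). *Grp* was 2.11 to 13.1 TPM in AGRP fed and 0 to 27.4 TPM in AGRP FD libraries. In POMC fed libraries 4 of 5 had no *Grp* reads and the other had 0.560 TPM from 4 counts, and POMC FD libraries reached 1.83 TPM. In fed mice *Grp* was higher in AGRP than POMC neurons by 5.53 ± 1.72 (log2 ± SE, edgeR q = 0.0434), a call that was lost in 8 of the 10 fits that left out 1 fed library (edgeR q up to 0.0996). *Prok2* had 22.1, 24.1, 5.28, 4.24 and 13.2 TPM in POMC fed libraries, of which the first 2 are those that stood apart, and 0 to 6.40 TPM in POMC FD libraries. Its POMC difference of −2.34 ± 1.10 did not pass (log2, FD against fed, ± SE, edgeR q = 0.388) and was −1.29 without those replicates. The *Prok2* difference between cell types in fed mice of −3.02 did not pass either (edgeR q = 0.112, and 0.0289 with limma-voom) and was −1.97 without them. *Prok1*, for prokineticin 1, had 1 count in 1 AGRP fed library and none in the other libraries, and was not tested.

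**Figure D4:**
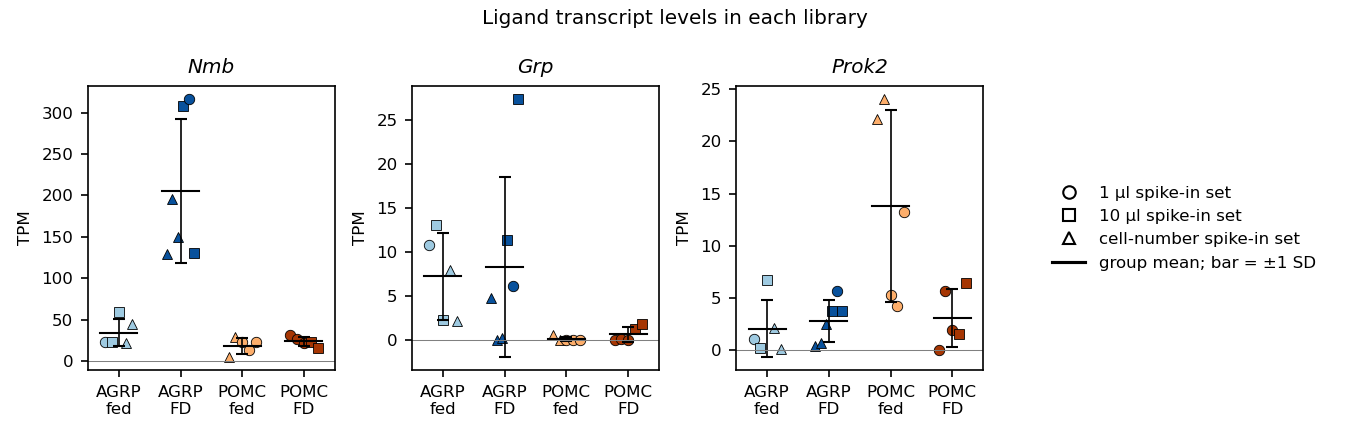
TPM (y axis) of *Nmb*, *Grp* and *Prok2* in each library (points) by cell type and feeding state (x axis), with group mean (line) ± SD (bar) and symbols for the spike-in sets. The 6 AGRP FD libraries lie between 129.2 and 316.6 TPM of *Nmb* and every other library at 58.8 TPM or below.

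Genes of the Gq pathway were examined through a list of 25 G protein subunits, phospholipases C, inositol trisphosphate receptors, protein kinases C and regulators, of which 24 were tested. This list too was chosen with earlier results of these data known, and the paper had reported *Prkca* as upregulated in AGRP neurons. Its q values are therefore no independent support. In AGRP neurons with food deprivation 4 rose and 2 fell, against 5.87% of all genes higher and 4.43% lower, and the median log2 fold change was −0.07 over the list and −0.02 over all genes. In POMC neurons none passed (edgeR, 5 of 24 at an unadjusted p under 0.05, and 2 passed with DESeq2), against 0.375% of all genes. *Rgs4*, which shortens Gq and Gi signals, rose by 1.66 ± 0.22 (log2 ± SE, edgeR q = 5.71e-06), from 329.2 ± 120.5 TPM (SD, n = 5) in fed to 867.0 ± 178.2 TPM (SD, n = 6) in FD mice. *Arrb1*, for a β-arrestin that uncouples receptors from G proteins, rose by 1.35 ± 0.20 (edgeR q = 3.91e-05). The related *Rgs2* and *Arrb2* were at 0.20 (edgeR q = 0.559) and −0.67 (edgeR q = 0.221). *Prkca*, a protein kinase C, rose by 1.04 ± 0.19 (edgeR q = 0.000289), and *Itpr1*, a calcium channel opened by inositol trisphosphate, by 0.73 ± 0.19 (edgeR q = 0.0125). *Plcb1*, a phospholipase C activated by Gq, fell by 1.34 ± 0.42 (edgeR q = 0.0390), a call that was lost without AGRP fed replicate 2 (log2 fold change −0.93, edgeR q = 0.200) or any of 4 other AGRP libraries. *Mrap2*, an accessory protein of melanocortin and prokineticin receptors, fell by 1.11 ± 0.27 (edgeR q = 0.00763). With ERCC scaling none of the 6 passed in AGRP neurons, where their SE were 0.76 to 0.84 against 0.19 to 0.42 in the main fit. On that scale *Rgs4* was at 1.08, *Arrb1* at 1.45, *Prkca* at 0.80, *Itpr1* at 0.72, *Plcb1* at −1.98 and *Mrap2* at −1.38.

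For 2 of the 24 genes (8.33%) the AGRP change differed from the POMC change, beside 6.71% of all genes. It exceeded it by 2.096 ± 0.31 for *Rgs4* (log2 ± SE, edgeR q = 6.69e-05) and by 1.50 ± 0.29 for *Arrb1* (edgeR q = 0.00119). With ERCC scaling these were 2.44 ± 1.10 and 2.76 ± 1.12, and neither passed (edgeR q = 0.428 and 0.340). For *Itpr1* the POMC values were 74.5 ± 22.5 TPM in fed and 134.5 ± 29.5 TPM in FD mice (SD, n = 5 each), beside 76.8 ± 13.7 and 105.7 ± 28.0 TPM in AGRP neurons.

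**Figure D5:**
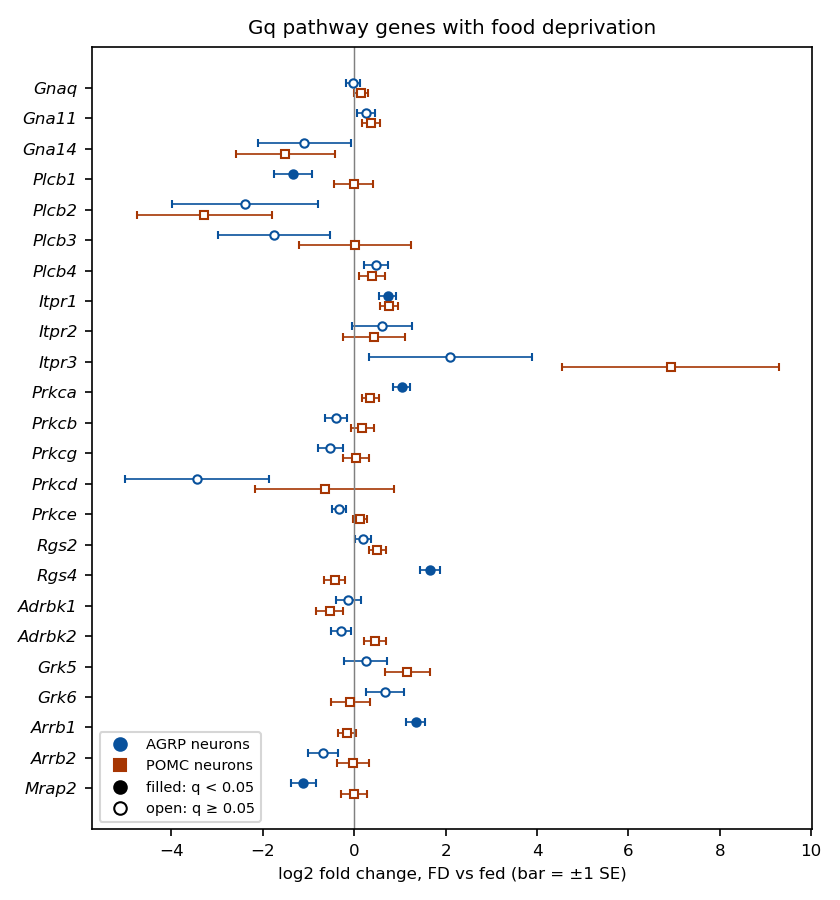
Log2 fold change of FD against fed mice (x axis, bars ± 1 SE) for 24 Gq pathway genes (y axis) in AGRP neurons (circles) and POMC neurons (squares), filled where edgeR q was under 0.05. The 6 filled points are all of AGRP neurons, with *Rgs4* (1.66) and *Arrb1* (1.35) farthest to the right among them.

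The cell types also differed in these genes. In fed mice 4 of the 24 were higher in AGRP than POMC neurons and 4 lower (3.33% and 4.24% of all genes), and in FD mice 4 were higher and 5 lower (9.28% and 9.27%). *Rgs2*, a regulator that acts on Gq, was higher in AGRP neurons by 2.76 ± 0.19 in fed (edgeR q = 6.26e-12) and 2.45 ± 0.19 in FD mice (edgeR q = 2.92e-11), at 835.8 ± 34.3 TPM in AGRP fed and 108.8 ± 23.5 TPM in POMC fed libraries (SD, n = 5 each). *Plcb4*, another phospholipase C, was higher in AGRP neurons by 1.28 in fed (edgeR q = 0.00246) and 1.35 in FD mice (edgeR q = 0.000435), and *Plcb1* was lower by a log2 fold change of −1.96 (edgeR q = 0.00407) and −3.29 (edgeR q = 1.73e-06). *Prkca* was higher in AGRP neurons in both states, by 1.12 (edgeR q = 0.000146) and 1.81 (edgeR q = 2.08e-08). *Mrap2* was lower in AGRP neurons, by a log2 fold change of −0.94 in fed mice (edgeR q = 0.0393, and 0.274 without POMC fed replicates 1 and 2) and −2.05 in FD mice (edgeR q = 2.07e-06). The fed *Mrap2* call was kept in 4 of the 10 fits that left out 1 fed library (edgeR q up to 0.122). It was lost with the spike-in set as a block (edgeR q = 0.0648). *Adrbk2*, a receptor kinase, was higher by 0.93 in fed mice (edgeR q = 0.0117, and 0.141 without POMC fed replicates 1 and 2), and *Arrb1* was at −1.04 (edgeR q = 0.000972). In FD mice *Rgs4* was higher in AGRP neurons by 1.87 (edgeR q = 1.86e-07), and the protein kinase C genes *Prkce* and *Prkcb* were at −0.72 (edgeR q = 0.000871) and −0.68 (edgeR q = 0.0470). The *Prkcb* call was kept in 3 of the 11 fits that left out 1 FD library (edgeR q up to 0.104). *Plcb2* was at −6.54 in fed mice (edgeR q = 0.0165) and −5.64 in FD mice (edgeR q = 0.0150), with 0.0452 TPM in AGRP fed and 4.17 ± 8.91 TPM (SD, n = 5) in POMC fed libraries, so these fitted values rest on few AGRP reads and an uneven POMC group. Both *Plcb2* calls were lost with limma-voom, at −2.86 (q = 0.280) and −3.57 (q = 0.0945), and with the spike-in set as a block (edgeR q = 0.0782 and 0.0617). With ERCC scaling the calls named here in fed mice were lost except that of *Rgs2* (edgeR q = 0.0388). In fed mice *Plcb4* was then at 1.88 ± 0.81 (edgeR q = 0.404), *Plcb1* at −2.04 ± 0.89 (edgeR q = 0.415) and *Prkca* at 1.45 ± 0.80 (edgeR q = 0.820, log2 ± SE). The *Mrap2* call in FD mice was lost too, at −0.92 ± 0.78 (edgeR q = 0.423). ERCC scaling turned *Prkce* and *Prkcb* to 0.46 and 0.30 in FD mice, where the median of all genes moved by 1.10.

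The genes whose levels followed each receptor most closely were found by Pearson's r of log2(normalized CPM + 0.5) over the 21 libraries, taken among genes whose normalized level averaged above 20 CPM in some group. The libraries fall into 2 cell types, so these values mostly compare the cell types and are given without a p. The r within a cell type pool fed and FD mice and use libraries by which the genes were picked, so they are no separate support. For *Prokr1* they were *Gm13425* (r = 0.98), *Nhlh2* (r = 0.98) and *Dnajc27* (r = 0.98). *Nhlh2*, a transcription factor gene, was 53.6 TPM in POMC fed, 93.0 TPM in POMC FD and at most 0.134 TPM in AGRP group means, and over the 10 POMC libraries alone the 3 genes had r of 0.34, 0.53 and 0.03. For *Brs3* they were *Pcdh8* (r = 0.95), *Tenm2* (r = 0.95) and *Cd44* (r = 0.95), which over the POMC libraries alone had r of 0.61, −0.36 and 0.36. For *Nmbr* they were *Cldn12* (r = 0.96), *Thbs1* (r = 0.95) and *Sox11* (r = 0.95), which over the 11 AGRP libraries alone had r of 0.88, 0.91 and 0.96. *Thbs1*, for the secreted protein thrombospondin, was 7.68 TPM in AGRP fed and 85.7 TPM in AGRP FD group means and under 1 TPM in POMC neurons. For *Prokr2* they were *Rcc2* (r = 0.86), *Dysf* (r = 0.86) and *Srpr* (r = 0.86). These followed *Prokr2* within both cell types, with r of 0.94, 0.73 and 0.83 over the AGRP libraries and 0.73, 0.92 and 0.86 over the POMC libraries. For *Grpr* the closest genes included *Lrrc73* (r = 0.72) and *Slc39a10* (r = 0.69). When Spearman's rho was used in place of Pearson's r, 1 of the 3 genes was shared for *Prokr2* and 0 for each of *Brs3*, *Nmbr* and *Prokr1*.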

How the data were processed

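Each RNA-Seq library came from hand-sorted fluorescent arcuate neurons of 1 mouse, and its RNA was amplified (NuGEN Ovation) with no molecular identifiers. The authors trimmed reads with cutadapt 1.7.1, removed abundant sequences with Bowtie2 2.1.0, mapped the rest to mm10 with STAR 2.4.0i and deposited unnormalized gene counts from HTSeq 0.6.1p1, from uniquely mapped reads without regard to strand (GENCODE M4 genes). The authors derived the deposited TPM from these counts and the summed exon length of each gene. The table's 92 ERCC and 5 summary entries were kept out of library sizes and tests.

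Groups came from the sample labels. The receptors, gene lists, motifs and tests were chosen with earlier results of these data known. Genes with CPM over 1 in at least 3 libraries (16513) were scaled by TMM and fitted in 1 model with 4 groups (edgeR 4.0.16 quasi-likelihood, two-sided, Benjamini-Hochberg q, in R 4.3.3). The paper's limma-voom test was an alternative (limma 3.58.1), as were DESeq2 1.42.0, RLE, ERCC scaling per sorted cell, no filter, the 2 compared groups alone, replicate and spike-in set blocks, the cell number as covariate and each library left out. Left out after seeing the data were POMC fed replicates 1 and 2, and the POMC libraries outside the 1 µl set. Levels between genes are compared in TPM only. Values at or under 3 counts (0.0911 to 0.294 normalized CPM) were taken as the floor, which covers counting error only. The text names the 5 receptors, 4 ligand genes, pathway genes with q under 0.05 in any contrast and the 3 genes most correlated with each receptor, of which 1 is not reported here. *B230364G03Rik* was added for its position. Promoters are from RefSeq (all 5 receptors matched), exon lengths from GENCODE M21. The scripts were tested on simulated counts. The q values come from tests that judge group differences against the spread between mice.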

Additional observations from a re-analysis of the deposited data

Results flagged for a closer look

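Receptor and ligand levels with 1 library far from the rest of its group were found in 7 of the 33 gene and group combinations tested by Dixon's criterion. Its chance rate of about 1 in 20 holds for normally distributed values, which low TPM with zeros are not, so no excess is read from this number. Where all other libraries had 0, as for *Grp* and *Prok1* below, any count stands out. *Grpr* stood out in 3 of them, at 21.1 TPM (314 counts) in AGRP fed replicate 4 against 3.54 TPM in the next library, at 23.6 TPM (343 counts) in POMC fed replicate 4 against 9.55 TPM, and at 9.62 TPM (138 counts) in POMC FD replicate 1 against 2.11 TPM. *Prokr2* was 27.2 TPM in AGRP fed replicate 5 against 15.3 TPM in the next library. The others were low values, *Nmbr* at 1.27 TPM (14 counts) in POMC fed replicate 4, *Grp* at 0.56 TPM (4 counts) in POMC fed replicate 1 and *Prok1* at 0.435 TPM (1 count) in AGRP fed replicate 2.

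The response to food deprivation differed between the cell types, by the edgeR test of the difference, for *Nmb* (AGRP change less POMC change 2.62 on the log2 scale), *Rgs4* (2.096) and *Arrb1* (1.50), with the q values given above. With ERCC scaling none of the 3 passed (edgeR q = 0.276, 0.428 and 0.340), and with limma-voom *Nmb* did not (q = 0.0739).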

How the results depend on the processing

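Across the alternatives 539 receptor fold changes moved by less than 1 SD between replicates and 30 by more. Many of these fits left out 1 library, which can rarely shift a value that far, so nothing is read from this count. The exceptions below are log2 fold changes, and their causes were not tested except where the setting itself removes samples. With ERCC scaling per sorted cell the genes called went from 1700 to 97 (AGRP FD against fed), 62 to 13 (POMC FD against fed), 1250 to 297 (AGRP against POMC, fed), 3064 to 1117 (AGRP against POMC, FD) and 1108 to 119 (AGRP less POMC change), and the Gq pathway calls in AGRP FD from 4 higher and 2 lower to 0. There *Nmbr* was 1.93 in AGRP neurons and 6.32 between cell types in fed mice, *Grpr* 2.69 and *Prokr1* −6.25 between cell types in FD mice, *Prokr2* 4.04 in that contrast, −3.11 in POMC neurons and 4.25 for the difference of changes, *Brs3* −1.75 and *Prokr1* −0.39 in POMC neurons and *Prokr1* 0.14 for the difference of changes. With that scaling signs turned for *Nmb* in POMC neurons (−0.88), *Grp* in AGRP neurons (−0.66), and *Prkcb* (0.30) and *Prkce* (0.46) between cell types in FD mice.

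With limma-voom, where the median of all genes moved to −0.13 in AGRP FD against fed, *Prokr1* was −0.46 in AGRP neurons, −7.94 between cell types in FD mice and −1.16 for the difference of changes, *Nmbr* 6.01 in fed and 7.82 in FD mice between cell types, *Grpr* −4.11 between cell types in fed mice and 4.00 for the difference of changes, and *Grp* −0.95 in AGRP neurons. DESeq2 called 378 genes in POMC FD against fed. With the spike-in set as a block *Nmbr* was 5.88 between cell types in fed mice and *Grp* −0.42 in AGRP neurons, and with the cell number as covariate *Prok2* was −0.0054 between cell types in FD mice. Without POMC fed replicates 1 and 2, 32 genes were called in POMC neurons and *Nmbr* was 0.53 there, and with the 1 µl set alone 27 were called, and 622 for the difference of changes.

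With 1 library left out at a time the ranges were 40 to 110 genes called in POMC neurons (40 without FD replicate 3, 110 without fed replicate 3), −8.19 to −7.39 for *Brs3* between cell types in FD mice, and for *Nmbr* −0.39 to 3.79 in POMC neurons, 4.46 to 7.60 and 6.43 to 8.42 between cell types in fed and FD mice and −0.84 to 3.33 for the difference of changes. *Grpr* ranged from −0.41 to 2.46 in AGRP neurons, −3.32 to −1.62 in POMC neurons, −3.69 to −0.93 between cell types in fed mice and 1.63 to 4.50 for the difference of changes, *Grp* from −0.38 to 0.79 in AGRP neurons and *Prok2* from −0.26 to 0.50 between cell types in FD mice.

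Replicate numbers are shared by the groups, but deviations of same-numbered libraries had correlations from −0.21 to 0.13 and were not taken as pairs. With the replicate number as a block 1488, 48, 1132, 2817 and 927 genes were called in the 5 contrasts, the receptors called were those of the main fit, and *Grp* was −1.74 in AGRP neurons. Levels at or under 3 counts in a library, as for *Nmbr* in 7 of 10 POMC libraries, set the limit of detection.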
